A study of Homo sapiens with 2 samples.

Results

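The genes described here belong to interleukin-6 (IL-6) signalling and to the acute phase response of the liver. They were chosen by symbol as 8 genes, namely IL6R, IL6ST, STAT3, SOCS3, SAA1, SAA4, HP and ORM1, and 5 of the 8 had a value among 16424 genes in all. SAA1, HP and ORM1 were not analysed here, and so the acute phase products among the 8 genes are represented by SAA4 alone.

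IL-6 binds its receptor IL-6R, and the complex engages gp130, the signalling chain that cytokines of the IL-6 family share. JAK kinases bound to gp130 then phosphorylate STAT3, which enters the nucleus and activates target genes, among them SOCS3, an inhibitor that closes the loop on gp130 and the JAK kinases. In hepatocytes this pathway drives the acute phase response, in which secreted proteins such as C-reactive protein, serum amyloid A, haptoglobin and fibrinogen are made in larger amounts, while albumin and other carriers are made in smaller amounts.

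PLC/PRF/5, a human hepatoma cell line, was incubated for 6 h in medium with 3 µg/ml M2BPGi, a glycoform of Mac-2-binding protein that is measured in serum as a marker of liver fibrosis, or in medium without it (non-treated cells, 0 µg/ml). Transcripts were measured by cap analysis of gene expression (CAGE), in which a tag is read from the capped end of each RNA, so that a level does not scale with transcript length and levels of different genes can be compared without division by length. Each condition had 1 library of 1 cell line, so no difference has a replicate check and no test of the treatment was possible. The depth was 24040209 tags without and 24862941 tags with M2BPGi, and 1 tag corresponded to 0.0416 and 0.0402 CPM, the unit in which tags are scaled to the size of their library.

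Hepatocyte markers were present in both libraries, with albumin at a low level. Of 12 hepatocyte markers 11 had a value, with a summed level of 3592 CPM in non-treated cells and 3550 CPM with M2BPGi, and the most abundant was the keratin gene KRT18, at 1250 and 1592 CPM. By gene, 8 of the 11 were lower and 3 higher after treatment, and their median log2 ratio (treated over non-treated) was −0.29. Alpha-fetoprotein, the fetal counterpart of albumin, was at 695 and 566 CPM, whereas ALB, the albumin gene, was at 8.82 and 7.04 CPM. Of 9 macrophage and leukocyte markers 3 had a value, with a sum of 53.2 and 49.7 CPM, the most abundant of them LYZ, and the defining leukocyte gene PTPRC was listed at 0 in both libraries. Of 8 stellate and fibroblast markers 2 had a value, with a sum of 5.20 and 4.18 CPM and COL3A1 as the most abundant, and 0 of 7 endothelial markers were analysed.

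Among the 5 genes, transcripts of the signal-transducing chain gp130 were lower in M2BPGi-treated than in non-treated cells, and those of STAT3 were nearly level. The receptor IL6R, the inhibitor SOCS3 and the acute phase gene SAA4 had low levels, with 11.3%, 10.3% and 4.40% of the genes with a mean of at least 1 CPM below them, and their differences were within counting error. Treated and non-treated cells were compared by the log2 ratio of their values, treated over non-treated, after 1 CPM was added to each, which understates the difference of low genes, and a difference of at least 1.5-fold (a log2 ratio of 0.58) was counted. Of the 5 genes 2 were higher and 3 lower, and 0 passed 1.5-fold in either direction. Of 13724 genes with a mean of at least 1 CPM, 1.6% were at least 1.5-fold higher (219 genes) and 4.04% at least 1.5-fold lower (555 genes), and 57% had a log2 ratio below 0 and 42.9% above it. The 95% Clopper-Pearson interval of the tag ratio, which covers counting error only, was wholly above 0 for 0 of the 5 genes and wholly below 0 for 1 (IL6ST), against 22.8% and 31.5% of all genes. Of all genes past 1.5-fold 28.3% were higher, and this share was 41.1% after a rescaling that set the median of all genes to 0. The median log2 ratio was −0.20 over the 5 genes and −0.05 over all 13724, and the first was −0.30 with a pseudocount of 0.1 CPM and −0.08 with 5 CPM. Shares of genes given from here on are of these 13724.

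**Figure D1:**
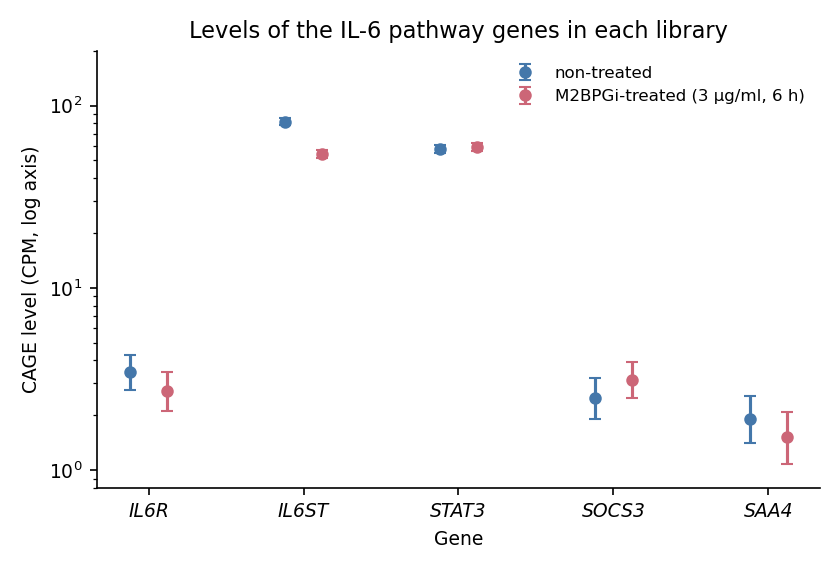
CAGE level in CPM (log axis) of the 5 genes with a value in the non-treated and the M2BPGi-treated library, with bars for exact 95% Poisson intervals that cover counting error only. IL6ST is the gene whose intervals lie apart, with 81.5 CPM in non-treated cells and 54.4 CPM with M2BPGi.

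The 5 genes formed a high and a low group by level. In non-treated cells IL6ST was highest at 81.5 CPM (95% Poisson interval 78.0 to 85.2) and STAT3 next at 58.0 CPM (55.0 to 61.1), followed at a distance by IL6R at 3.45 CPM (2.75 to 4.28), SOCS3 at 2.5 CPM (1.90 to 3.21) and SAA4 at 1.91 CPM (1.40 to 2.55). The intervals of IL6R and SOCS3 overlapped, as did those of SOCS3 and SAA4, so these neighbours did not differ beyond counting error. In M2BPGi-treated cells the order was STAT3 at 59.1 CPM (56.1 to 62.2), IL6ST at 54.4 CPM (51.6 to 57.4), SOCS3 at 3.14 CPM (2.48 to 3.92), IL6R at 2.73 CPM (2.12 to 3.47) and SAA4 at 1.53 CPM (1.08 to 2.10). STAT3 and IL6ST, apart in non-treated cells, had overlapping intervals after treatment. The level of IL6ST was 23.6 times that of IL6R in non-treated and 19.9 times in M2BPGi-treated cells, and that of STAT3 was 23.2 and 18.8 times that of SOCS3.

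**Figure D2:**
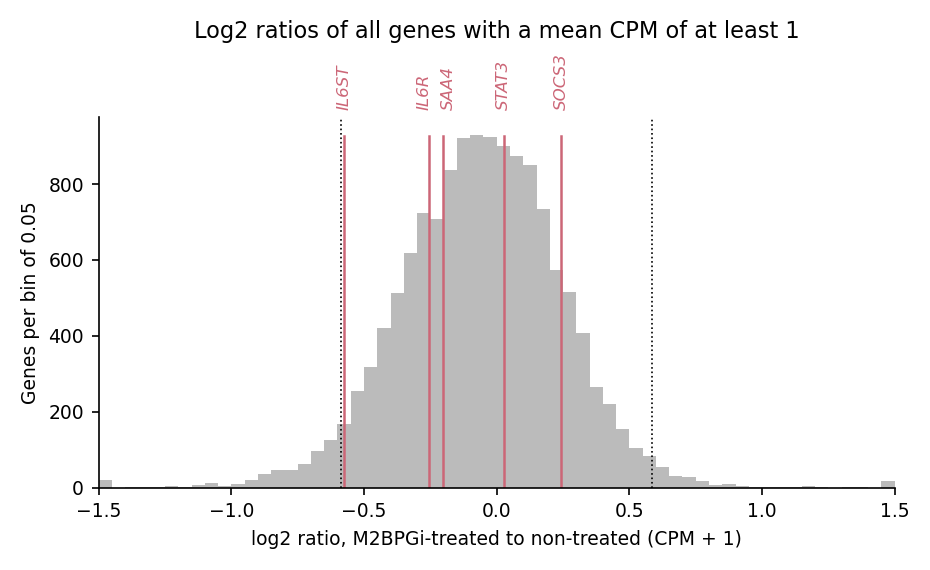
Number of genes per bin of 0.05 in the log2 ratio, treated over non-treated cells (CPM + 1), over 13724 genes, with the 5 genes as red lines and 1.5-fold as dotted lines; genes beyond 1.5 on the axis are drawn in the end bins. IL6ST, at −0.57, lies beside the dotted line for 1.5-fold lower, and the other genes lie between −0.25 and 0.24.

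The ligands of the family were listed at 0 or had low levels. IL6 itself, OSM and IL27 were listed at 0 in both libraries, which cannot be read as absence, since how tags were assigned to genes is not given in the sources used here. LIF, at 0.75 and 0.56 CPM, had a mean under 1 CPM. IL11, which signals through gp130 with its own receptor, was at 3.37 CPM in non-treated cells and 1.41 CPM with M2BPGi (81 and 35 tags), with a log2 ratio of −0.86, and was the single gene of this group past 1.5-fold; it was named after its value was seen, and with a pseudocount of 5 CPM it was not past 1.5-fold. CLCF1, a further ligand of the family, was at 4.37 and 3.42 CPM.

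Receptor genes had log2 ratios below 0, none of them past 1.5-fold, and the intervals of IL6R and IL27RA spanned 0. IL6ST, which encodes gp130, had 1960 tags in non-treated and 1353 tags in M2BPGi-treated cells. Its log2 ratio was −0.57, just short of 1.5-fold, and the log2 ratio of its tags without the added CPM was −0.58, with an interval of −0.68 to −0.48. Only 4.25% of the 13724 genes had a lower log2 ratio. A pseudogene, IL6STP1, matched the first 500 nt of an IL6ST transcript with 96.1% identity over 483 nt, and IL6STP1 was not analysed here. Tags from the start of that transcript could be assigned to either, which was not tested.

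IL6R, the receptor that binds IL-6 itself, rested on 83 and 68 tags. Its log2 ratio was −0.25, and the interval of its tag ratio, −0.82 to 0.14, spanned 0, so a difference was not detectable at this depth. The receptors of oncostatin M and leukaemia inhibitory factor, which pair with gp130, were more abundant and lower after treatment, with OSMR at 55.5 and 40.7 CPM (log2 ratio −0.44) and LIFR at 14.0 and 10.1 CPM (log2 ratio −0.43). IL11RA, the receptor of IL-11, was at 15.7 and 12.5 CPM (log2 ratio −0.31). ADAM17 and ADAM10, membrane proteases that shed IL-6R from the cell surface, were at 41.6 and 30.2 CPM and at 174.5 and 139.7 CPM, with log2 ratios of −0.45 and −0.32. OSMR, LIFR and CLCF1 were named after their values were seen. Of 17 ligand, receptor and protease genes 10 had a mean of at least 1 CPM, and 10 of these 10 were lower in M2BPGi-treated cells, against 57% of all genes. Their median log2 ratio was −0.38, against −0.05 over all genes.

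**Figure D3:**
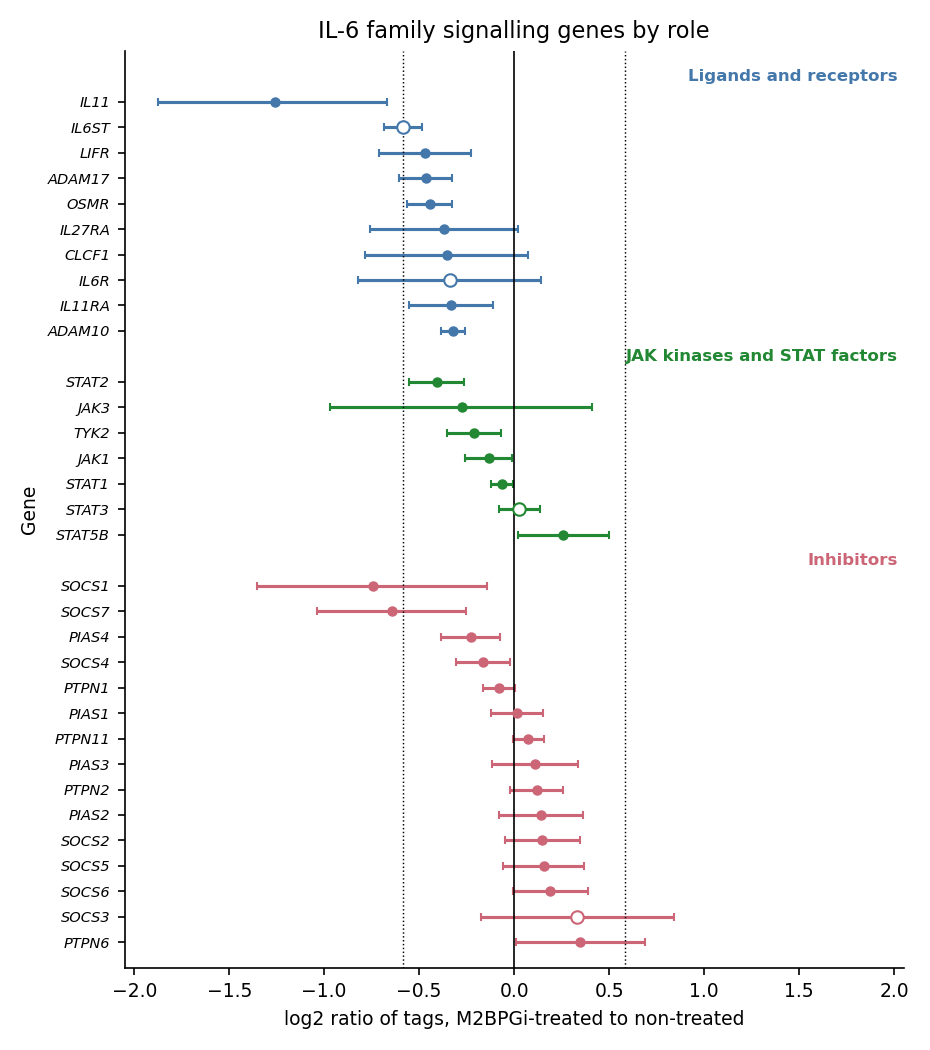
Log2 ratio of tags, M2BPGi-treated to non-treated, for ligand, receptor and protease genes (blue), JAK and STAT genes (green) and inhibitor genes (red) with a mean of at least 1 CPM, with bars for 95% Clopper-Pearson intervals (counting error only), open circles for IL6ST, IL6R, STAT3 and SOCS3 and dotted lines at 1.5-fold. All 10 ligand, receptor and protease genes lie below 0, 7 of them with their whole interval, whereas of 15 inhibitor genes 10 lie above 0, 9 of these with intervals that span it, and 4 have their whole interval below 0, as had 31.5% of all genes.

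Among the kinases and STAT factors, STAT3 was nearly level between the libraries. STAT3, the factor that carries the signal to acute phase promoters, had 1394 tags in non-treated and 1469 tags in M2BPGi-treated cells. Its log2 ratio was 0.03, with an interval of −0.08 to 0.13 for its tags, and 60.4% of genes had a lower ratio. JAK1, the main kinase of gp130, was at 47.0 and 42.8 CPM (log2 ratio −0.13), and TYK2 at 35.7 and 30.8 CPM (log2 ratio −0.21). JAK2 was not analysed here. STAT2, a factor of interferon signalling, was lowest of the factors with a mean of at least 10 CPM, at 38.3 and 28.8 CPM (log2 ratio −0.40). STAT5B, which carries growth hormone signals, was highest with 11.0 and 13.2 CPM (log2 ratio 0.24). STAT5A and STAT6 were listed at 0 in both libraries. STAT5A matched STAT5B with 95.5% identity over 269 nt, within the first 500 nt of a transcript. Of 11 genes 7 had a mean of at least 1 CPM, with 2 higher, 5 lower and 0 past 1.5-fold, against 42.9% higher, 57% lower and, past 1.5-fold, 1.6% and 4.04% of all genes. Their median log2 ratio was −0.13, which was −0.07 after the rescaling that set the median of all genes to 0 and with a pseudocount of 5 CPM. Relative to genes of like transcript length 3 were higher and 4 lower, with a median of −0.02.

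Inhibitors of the pathway did not share a direction. SOCS3, the feedback inhibitor that binds gp130, had 60 and 78 tags, and its log2 ratio of 0.24 was higher than that of 85.1% of genes. The interval of its tag ratio, −0.17 to 0.84, spanned 0. SOCS1, which inhibits the JAK kinases directly, was at 2.62 and 1.57 CPM (63 and 39 tags), with a log2 ratio of −0.49 and an interval of −1.36 to −0.14 for its tags. Thus the point values of the 2 JAK inhibitors lay on opposite sides of 0, at levels of under 4 CPM. SOCS6 and SOCS5, of the same family, were at 16.2 and 18.5 CPM and at 14.2 and 15.9 CPM, with log2 ratios of 0.18 and 0.15, and the intervals of their tag ratios, −0.01 to 0.39 and −0.06 to 0.37, spanned 0. PIAS4, a SUMO ligase that restrains STAT factors, was at 29.99 and 25.6 CPM (log2 ratio −0.22), and SOCS4 at 35.3 and 31.5 CPM (log2 ratio −0.16). SOCS7, named after its value was seen, had the lowest log2 ratio of the inhibitors, −0.53, at 5.78 and 3.70 CPM, with an interval of −1.04 to −0.25 for its tags. Of 17 inhibitor genes 15 had a mean of at least 1 CPM, and 10 were higher, against 42.9% of all genes, 5 lower and 0 past 1.5-fold, with a median log2 ratio of 0.10. The intervals of 9 of the 10 higher genes spanned 0, and that of PTPN6, named after its value was seen, was 0.01 to 0.69. Of the 5 lower genes 4 (PIAS4, SOCS1, SOCS4 and SOCS7) had intervals wholly below 0, and these 4 of 15 lie near the 31.5% of all genes. With a pseudocount of 0.1 CPM 2 inhibitors were at least 1.5-fold lower, and the median was 0.15 after the rescaling. Relative to genes of like length it was 0.19, but over the 14 inhibitors with a known length, which leave out SOCS7, the lowest of the 15.

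Acute phase genes were lower in M2BPGi-treated cells as a group. SAA4, the constitutive form of serum amyloid A carried on high-density lipoprotein, rested on 46 and 38 tags, and its log2 ratio of −0.20 had an interval of −0.98 to 0.33 for its tags. The inducible forms SAA1 and SAA2, haptoglobin (HP), its relative HPR and the orosomucoids ORM1 and ORM2 were not analysed here. SAA4 overlaps a readthrough transcript with SAA2 in the annotation. Tags mark the capped end of a transcript, and where that of the readthrough lies was not examined. Whether it adds tags to SAA4 is therefore not known.

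The fibrinogen genes FGA, FGB and FGG, whose chains form the clotting protein, had a summed level of 3367 CPM without and 2296 CPM with M2BPGi. FGA was at 1015 and 687 CPM (log2 ratio −0.56), FGB at 950 and 623 CPM (log2 ratio −0.61) and FGG at 1402 and 987 CPM (log2 ratio −0.51). Each of the 3 rested on at least 15483 tags a library, and their ratios lay close together. SERPINA1, the inhibitor of neutrophil elastase, was at 671 and 455 CPM (log2 ratio −0.56), and CP, the copper carrier ceruloplasmin, at 22.8 and 14.0 CPM (log2 ratio −0.67). C-reactive protein, the most used clinical marker of the acute phase, was low in both libraries, with CRP at 2.95 and 2.25 CPM (log2 ratio −0.28) and an interval of −0.92 to 0.13 for its tags. SERPINA3 was at 0.71 and 0.36 CPM, too low to be counted. AGT, the angiotensin precursor and the most abundant gene of the group, was at 1781 and 1668 CPM (log2 ratio −0.09), and TIMP1, an inhibitor of matrix proteases, was the gene above 0, at 165 and 176 CPM (log2 ratio 0.09).

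Of 28 genes listed as positive acute phase genes 16 had a value and 15 a mean of at least 1 CPM. Of these 15, 14 were lower and 1 higher in M2BPGi-treated cells, against 57% of all genes lower, and 2 (FGB and CP) were at least 1.5-fold lower, against 4.04%. Their median log2 ratio was −0.36, which is the value of A2M. The list holds SAA4, the constitutive form, and also A2M and APCS (log2 ratio −0.33). Whether A2M and APCS rise in a human acute phase response was not examined here. The summed level of all 16 genes with a value was 7068 CPM in non-treated cells and 5451 CPM with M2BPGi. After the rescaling that set the median of all genes to 0, CP was past 1.5-fold and FGB was not, while with a pseudocount of 5 CPM FGB was and CP was not. Negative acute phase genes, which an acute phase response lowers, were lower in 7 of 9 cases, against 57% of all genes, and higher in 2, with a median of −0.29. SERPINA6 and TF were at least 1.5-fold lower, against 4.04% of all genes, and after the rescaling 0 of the 9 were. SERPINA6, the cortisol carrier, was at 179.7 and 115 CPM (log2 ratio −0.64), APOM at 214 and 158 CPM (log2 ratio −0.44) and ALB, at the levels given above, had a log2 ratio of −0.29. APOA2, an apolipoprotein of high-density lipoprotein, was higher, at 241 and 261 CPM (log2 ratio 0.11). Of the hepatocyte markers, which share SERPINA1 with the positive and ALB, APOA1, TF and TTR with the negative group, 8 of 11 were lower, as given above, against 57% of all genes. All 8 had intervals wholly below 0, as had 11 of the 15 positive acute phase genes and 31.5% of all genes. The medians of the markers and of the negative group are both the value of ALB, which rested on 212 and 175 tags, so they are not separate measurements. The part of the marker genes in the acute phase values was not tested.

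**Figure D4:**
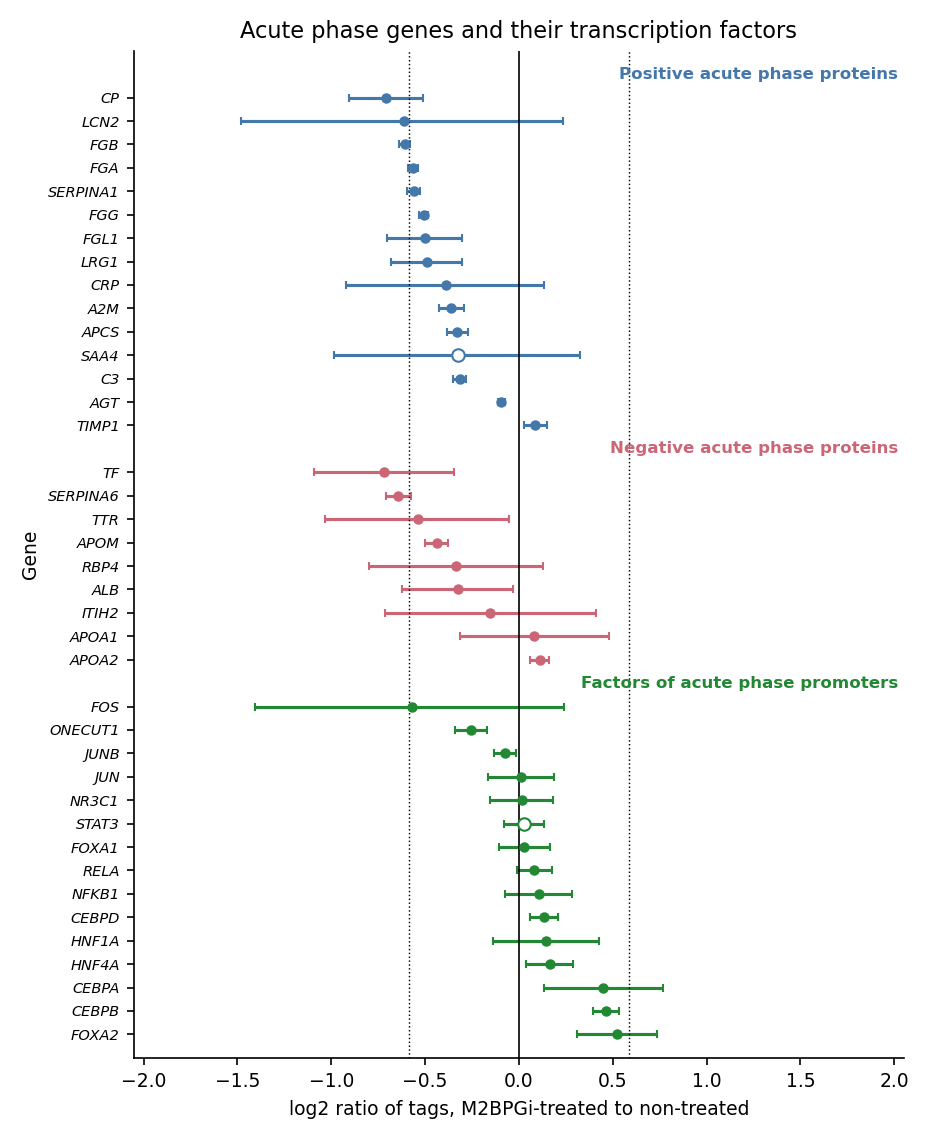
Log2 ratio of tags, M2BPGi-treated to non-treated, for positive (blue) and negative (red) acute phase genes and transcription factors of acute phase promoters (green) with a mean of at least 1 CPM, with bars for 95% Clopper-Pearson intervals (counting error only), open circles for SAA4 and STAT3 and dotted lines at 1.5-fold. Of the positive group 14 of 15 genes lie below 0, 11 of them with their whole interval (31.5% of all genes), and of the 15 transcription factors drawn 12 lie above 0, 5 of these with their whole interval (22.8% of all genes). Of 11 hepatocyte markers, not drawn as a group, 8 had their whole interval below 0.

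Of the transcription factors that bind acute phase promoters more had log2 ratios above 0 than below it, most of those above within counting error. CEBPB, a C/EBP factor induced by IL-6 in liver, was at 113 CPM in non-treated cells and 155 CPM with M2BPGi (log2 ratio 0.46), and its relative CEBPD at 115 and 126 CPM (log2 ratio 0.13). FOXA2, a pioneer factor of hepatocyte genes, was at 12.8 and 18.4 CPM (log2 ratio 0.49). ONECUT1, also a liver factor, was lower, at 101.5 and 85.1 CPM (log2 ratio −0.25). Of 16 factors 12 were higher, against 42.9% of all genes, 4 lower and 0 past 1.5-fold, with a median log2 ratio of 0.05, which was 0.11 after the rescaling and, over the 15 with a known length, 0.15 relative to genes of like length. Over the 13 factors with a mean of at least 10 CPM the median was 0.03.

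Known target genes of STAT3 spread to both sides. Of 22 targets 12 were higher and 10 lower, against 42.9% and 57% of all genes, with a median log2 ratio of 0.04, or 0.09 after the rescaling. The interval for counting error lay wholly above 0 for 9 targets and wholly below 0 for 7, against 22.8% and 31.5% of all genes. BIRC5, which encodes the apoptosis inhibitor survivin, was highest at 86.8 and 122 CPM (log2 ratio 0.49). IRF1, an interferon response factor, was lowest at 17.3 and 8.97 CPM (log2 ratio −0.87), with BCL6, a transcriptional repressor, next at 21.6 and 11.9 CPM (log2 ratio −0.81). These 2 of 22 genes were at least 1.5-fold lower, against 4.04% of all genes, and 0 of 22 were at least 1.5-fold higher, against 1.6%. The STAT3 targets SOCS3, CEBPB, CEBPD, FOS, JUNB, FGL1, TIMP1, IL6ST and STAT3 also belong to other groups described. Besides IL6ST and STAT5B, the genes KRT18, BIRC5, ADAM17, SOCS5 and CP matched another gene, as did A2M, C3, HIF1A, KRT8, PTPN11, PTPN2 and TRAF6 among the genes counted in the groups. A match meant at least 95% identity over at least 100 nt, within the first 500 nt of a transcript. Some were short stretches shared with genes of other names, as for BIRC5 with HES2 (101 nt), ADAM17 with AL136115.2 (102 nt), C3 with SNX27 (108 nt) and HIF1A with IKBKB (103 nt). Where in these 500 nt a match lay was not recorded, so whether tags could be assigned to either gene was not tested. The median of the positive acute phase genes is the value of A2M, which matched PZP with 99.1% identity over 214 nt. SOCS7 was not searched for such matches.

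Upstream sequences of the 5 genes were searched on both strands for letters known from IL-6 responsive promoters, in the 250 bases before each RefSeq start (GRCh38.p14, not the build of the deposited values). The letters were TTCNNNGAA (STAT), CTGGGAA (the IL-6 response element of fibrinogen and similar genes), TTNNGNAA (C/EBP) and GGNNTTTCC (NF-kB), and matches of different motifs may overlap. All 5 genes matched the RefSeq table, with 6 windows. SOCS3 held CTGGGAA, 3 genes (IL6R, SAA4 and SOCS3) held TTNNGNAA, and 0 genes held TTCNNNGAA or GGNNTTTCC. For SOCS3 this covers its RefSeq windows only. The start of the gene in the annotation, at position 78360077 of chromosome 17, lies between these windows, and the bases just before it were not searched. Of 35116 windows of all genes 9.15% held CTGGGAA, 33.2% TTNNGNAA, 6.57% TTCNNNGAA and 5.48% GGNNTTTCC. RefSeq windows were found for 12 positive acute phase genes, of which 4 held CTGGGAA, 10 TTNNGNAA, 3 TTCNNNGAA and 2 GGNNTTTCC. Counted by window, as the shares of all genes are, 5 of 14 held CTGGGAA, 11 TTNNGNAA, 3 TTCNNNGAA and 2 GGNNTTTCC. A match describes the letters only, and no binding was measured.

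The window of SOCS3 is shown because it was the one with CTGGGAA among the 5 genes, and those of FGA and FGB because these acute phase genes were lower together and hold STAT or IL-6 response element letters. They lie on chr17:78360926-78361175 (minus strand), chr4:154590743-154590992 (minus strand) and chr4:154562730-154562979 (plus strand). The SOCS3 and FGB windows are the more upstream of 2 RefSeq windows each, and which start the tags came from was not analysed here. In the annotation 24 bases of the FGA and 24 of the FGB window lie in exons, and 0 of the SOCS3 window. Capitals mark matches to any of the 4 motifs, including matches on the opposite strand.
SOCS3: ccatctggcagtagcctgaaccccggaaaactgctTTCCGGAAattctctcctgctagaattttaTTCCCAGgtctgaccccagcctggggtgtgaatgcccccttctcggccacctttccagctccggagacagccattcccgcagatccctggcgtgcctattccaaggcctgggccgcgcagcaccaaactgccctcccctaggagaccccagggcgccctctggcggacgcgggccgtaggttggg
FGA: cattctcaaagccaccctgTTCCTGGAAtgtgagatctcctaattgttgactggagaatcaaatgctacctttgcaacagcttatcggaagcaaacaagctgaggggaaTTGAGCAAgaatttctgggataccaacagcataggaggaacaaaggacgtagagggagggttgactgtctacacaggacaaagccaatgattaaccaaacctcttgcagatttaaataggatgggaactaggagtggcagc
FGB: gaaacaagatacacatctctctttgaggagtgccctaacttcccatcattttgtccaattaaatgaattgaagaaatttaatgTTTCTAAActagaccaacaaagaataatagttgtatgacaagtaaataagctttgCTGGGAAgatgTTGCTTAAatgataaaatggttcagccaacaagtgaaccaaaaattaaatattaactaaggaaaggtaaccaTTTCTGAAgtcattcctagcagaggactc

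In SOCS3 the CTGGGAA match, on the opposite strand, begins 185 bases before the start, and a TTNNGNAA match begins 215 bases before it. In FGB the CTGGGAA match begins 112 bases before the start and is followed by a TTNNGNAA match that begins 101 bases before it. In FGA a TTCNNNGAA match begins 231 bases before the start. The other SOCS3 window, which lies further downstream, held 0 matches of the 4 motifs. AGT, APCS and FGG also held CTGGGAA.

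Ratios of all genes varied with transcript length, which is therefore given beside the results. The median log2 ratio was 0.04, −0.04, −0.07 and −0.12 from the shortest to the longest transcripts, over 13271 genes with a known length in 4 groups of equal size. The length of a gene was that of its longest protein-coding transcript, or of its longest transcript where it had none. This need not be the transcript that the cells expressed. IL6ST (9057 nt), IL6R (5914 nt) and STAT3 (5047 nt) were in the group of the longest transcripts, SOCS3 (2734 nt) in the second and SAA4 (727 nt) in the first. Relative to the median of its length group IL6ST had a log2 ratio of −0.46 and STAT3 of 0.14, in a comparison chosen after seeing the data. The fibrinogen genes were spread over the 3 groups of shorter transcripts, with FGG (1760 nt), FGB (1975 nt) and FGA (3678 nt), and were lower in each. Relative to genes of like length the median of the positive acute phase genes was −0.37, against −0.36 before. That of the ligand, receptor and protease genes was −0.29, against −0.38 before. The part of length in these differences was not tested.

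**Figure D5:**
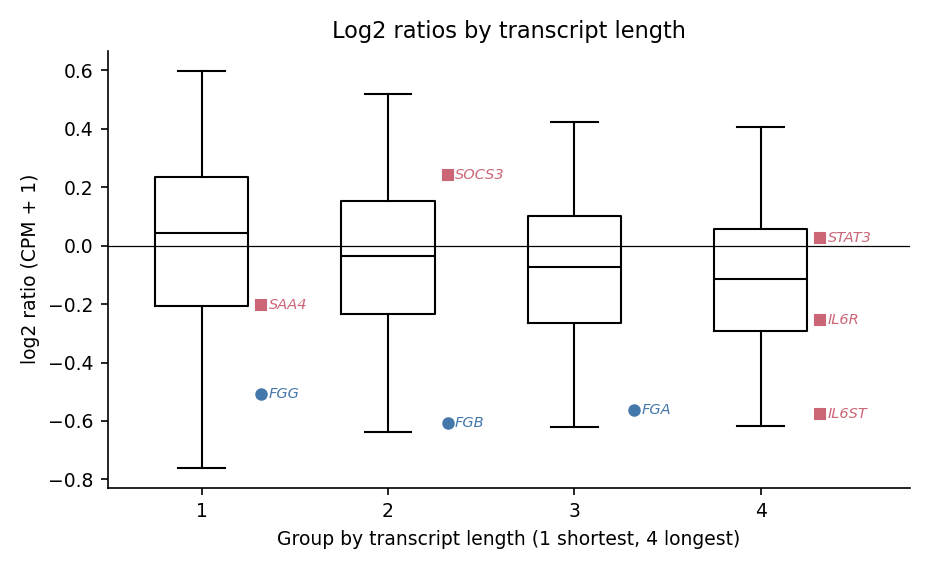
Log2 ratio (CPM + 1) of all genes in 4 groups of transcript length, with boxes for the quartiles, lines for the medians and whiskers that hold the central 95% of genes, and with the 5 genes (red squares) and the fibrinogen genes (blue circles) beside their group. The medians go from 0.04 to −0.12, and IL6ST and the fibrinogen genes lie below the box of their group.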

How the data were processed

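CAGE tags of 1 non-treated and 1 M2BPGi-treated library were used. The authors discarded ribosomal tags, mapped the remainder (BWA, HISAT2 and hg19 are listed in the submitters' processing notes, whereas the methods name a mouse genome) and deposited CPM values per gene, rounded to 2 decimals. How tags were assigned to genes is not given in the sources used here. Numbers of tags were recovered from the steps between CPM values, 100% of which were whole within 0.005 CPM, and served for the intervals. Within 0.1 tag, which is less than the rounding, 87.6% and 94.1% of values up to 20 tags were whole, under the 95% set for a count test, so none was run, nor were factors that need counts.

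Genes named were the 8 genes, fixed relatives and partners, and the 2 highest and 2 lowest of each list with a mean of at least 10 CPM, except 1 transcription factor, which is left out of the text and plots. Members and lists were chosen with earlier results of these data known. Scripts were tested on simulated data. Transcript lengths and sequence matches (BLAST+ 2.17.0) came from GENCODE, promoters from RefSeq. Python 3.11.15 and scipy 1.17.1 were used.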

Additional observations from a re-analysis of the deposited data

How the results depend on the processing

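Under 9 alternatives (7 planned, 2 chosen after seeing the data) 73 values were recomputed, and 61 stayed close to the reported value and 12 did not. The reported log2 ratios and medians were all short of 1.5-fold, so a change of direction while past it could not be counted. Dropping the filter or summing the rows of a symbol left the ratio of each of the 5 genes unchanged, so those values stayed close by construction. Close meant a move of no more than the half-width of the counting interval for a gene, of the median half-width over its genes for a median, and a factor of 1.5 for a count. For IL6R, SOCS3 and SAA4 this half-width was larger than the log2 ratio itself, so staying close says little for them. The log2 ratio ranged from −0.58 to −0.46 for IL6ST, 0.02 to 0.14 for STAT3, 0.12 to 0.32 for SOCS3, −0.33 to −0.13 for IL6R and −0.30 to −0.08 for SAA4, so each gene kept its side of 0. Relative to the median of genes of like transcript length (added), IL6ST was at −0.46 and STAT3 at 0.14. The acute phase median was −0.49 with a pseudocount of 0.1 CPM and −0.47 with a mean of at least 10 CPM. Genes past the fold, higher and lower, were 336 and 856 with 0.1 CPM, 91 and 164 with 5 CPM, 135 and 223 with a mean of at least 10 CPM, and 33 and 59 at 2-fold, where fewer genes can pass by construction; for the pseudocounts the cause was not tested. Rescaling by a trimmed mean was the other added alternative. The edgeR TMM factors and the edgeR exact test were not run. With a mean of at least 10 CPM, 2 of the 5 genes remained, so IL6R, SOCS3 and SAA4 have no value there. No paired analysis was possible because there was a single library for each treatment. Under 100 tags, as for IL6R, SOCS3 and SAA4, depth limits what can be told apart.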

Other observations

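The interleukin-1 arm, which acts with IL-6 on many acute phase promoters, did not share a direction. Of 12 genes 9 had a mean of at least 1 CPM, of which 5 were higher and 4 lower after treatment, against 42.9% and 57% of all genes, and 0 were past 1.5-fold, against 1.6% higher and 4.04% lower. The higher genes include TNFRSF1A, a receptor of tumour necrosis factor and not of interleukin-1. It was at 93.0 and 94.5 CPM (log2 ratio 0.02), with an interval of −0.06 to 0.11 for its tags. Their median log2 ratio was 0.02, which was 0.08 after a rescaling that set the median of all genes to 0. This median is the value of TNFRSF1A, so it is not the measurement of an interleukin-1 gene. NFKBIA, the inhibitor of NF-kB that the pathway itself induces, was at 19.1 and 14.1 CPM (log2 ratio −0.42), and IL1R2, the decoy receptor, at 56.7 and 46.0 CPM (log2 ratio −0.30). The signalling receptor IL1R1 was at 74.9 and 84.1 CPM (log2 ratio 0.16), and the kinase IRAK1 at 78.5 and 92.5 CPM (log2 ratio 0.23). The ligands IL1A and IL1B and the antagonist IL1RN were not analysed here.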
